A study of Mus musculus with 12 samples.

Results

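The genes described here are 10 genes of heme and iron handling, chosen by symbol from the 18376 genes listed in a table of bone marrow-derived macrophages (BMDMs). They are *Hmox1*, *Blvra*, *Blvrb*, *Fth1*, *Ftl1*, *Tfrc*, *Slc40a1*, *Slc11a1*, *Steap3* and *Spic*. The rule of choice used symbols and no measured value, though earlier results of these data were known when it was made. All 10 were listed, and all 10 reached the mean normalized count of 5 that was asked of a tested gene. RNA was sequenced from 12 libraries, 3 in each of 4 groups. Progenitor cells from bone marrow of adult wild-type (WT) C57BL6/J mice were grown into macrophages with 50 ng/ml M-CSF, so all groups shared this factor, strain and genotype. The CTRL group had no further treatment. The Act group was given recombinant activin A at 50 ng/ml, the FST group FST288 at 250 ng/ml, and the Act+FST group both agents at these doses, in each case for 6 days. Activin A is a secreted cytokine of the TGF-β superfamily, and FST288 is a form of follistatin, a protein that binds activin A and blocks it. The cells stood in for testicular macrophages and were raised in culture without other tissue cells. Whether the 3 libraries of a group came from separate mice is not given in the sources used here, so p-values measure the spread between libraries only.

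Macrophages take up and recycle iron, much of it from the heme of aged red blood cells. Heme is opened by heme oxygenase (*Hmox1*), which releases iron, carbon monoxide and biliverdin, and biliverdin is reduced to bilirubin by the biliverdin reductases (*Blvra*, *Blvrb*). Iron also enters cells bound to transferrin through the transferrin receptor (*Tfrc*), is reduced in endosomes by a ferrireductase (*Steap3*), and is moved out of phagosomes by *Slc11a1* (NRAMP1). Surplus iron is stored in ferritin, which is built from heavy (*Fth1*) and light (*Ftl1*) chains, or leaves the cell through ferroportin (*Slc40a1*), the known cellular iron exporter. *Spic* encodes a transcription factor needed for iron-recycling macrophages of the splenic red pulp, and its expression can be induced by heme.

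Several of these transcripts carry iron-responsive elements, short RNA hairpins that are bound by iron regulatory proteins when cell iron is low. Binding in a 5′ UTR blocks translation, and binding in the 3′ UTR of *Tfrc* protects the transcript from decay. The hairpins are printed because they fall in both kinds of transcript that stand out below, those that were lower after activin A and those that were not. A search of GENCODE transcripts on GRCm38 looked for a C, then 5 bases, then a loop of 6 bases (CAGTG and a last base other than G), then 5 bases that pair with the 5 before the loop, G-T pairs allowed. This pattern was found in 4 of the 10 genes, against 123 of 21877 protein-coding genes (0.562%). Capitals mark the loop, and each line gives the stretch 5′ to 3′ on the strand of the gene.
*Fth1*, 5′ UTR, chr19:9982732-9982760, plus strand: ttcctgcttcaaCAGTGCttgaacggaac
*Ftl1*, 5′ UTR, chr7:45459779-45459807, minus strand: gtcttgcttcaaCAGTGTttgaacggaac
*Slc40a1*, 5′ UTR, chr1:45925465-45925493, minus strand: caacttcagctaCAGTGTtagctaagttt
*Tfrc*, 3′ UTR, chr16:32631219-32631247, plus strand: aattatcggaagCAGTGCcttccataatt
*Tfrc*, 3′ UTR, chr16:32631598-32631626, plus strand: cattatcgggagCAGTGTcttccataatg
*Tfrc*, 3′ UTR, chr16:32631663-32631691, plus strand: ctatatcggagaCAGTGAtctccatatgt
*Tfrc*, 3′ UTR, chr16:32631710-32631738, plus strand: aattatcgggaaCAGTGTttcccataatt
The ferritin chains share the 5 bases on either side of the loop of the hairpin, and the pattern matched 4 times in the 3′ UTR of *Tfrc*. Elements that depart from the pattern would be missed, so these are counts of matches only. A match is a description of these letters only, and no binding or translation was measured in these cells.

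The values, normalized counts in what follows, are read counts per gene that the authors scaled by library and rounded. Library totals lay between 5643708 and 5955400, and being scaled they do not show the depth of sequencing. Macrophage identity was checked with 8 markers, of which all were above a mean of 5. Their summed normalized counts lay between 11403 and 12394 in CTRL and between 11653 and 12245 in Act, with *Csf1r*, the M-CSF receptor, highest at a mean of 3346. One library stood apart, since 10 proliferation markers, chosen after values were seen, summed to 6021 in Act+FST replicate 3 and to between 2202 and 3730 in the other 11 libraries. Results that involve Act+FST are therefore given with and without this library where they bear on *Tfrc*, *Slc40a1* or *Steap3*.

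All 10 genes were expressed in untreated BMDMs. Per kilobase of principal transcript, *Fth1* had the highest mean level over the 12 libraries (766 normalized counts per kb), followed by *Slc11a1* (653) and *Slc40a1* (646). *Blvrb* (545), *Hmox1* (507), *Blvra* (444) and *Ftl1* (426) formed a middle range, and *Tfrc* (255), *Spic* (131) and *Steap3* (100.5) were lowest. In CTRL, the order put *Slc40a1* (713 per kb) above *Slc11a1* (654 per kb), and in Act the order of this pair was turned, with *Slc40a1* at 465 and *Slc11a1* at 671 per kb. *Tfrc* stood at 318 per kb in CTRL and at 108 per kb in Act, where it came below *Spic* (130 per kb). Per base of all annotated exons, *Hmox1* exceeded 99.5% of genes, *Slc11a1* 99.2%, *Fth1* 98.2% and *Ftl1* 97.7%. Whether duplicate reads were removed is not given in the sources used here, and a removal would hold down the highest of these levels. Over all genes with annotated exons the highest mean was 0.883 per exonic base, and *Fth1* had 0.766 per base of its principal transcript. Whether the order of the levels was affected was not tested. Ferritin levels are uncertain also because the authors excluded reads aligning to several regions and both chains have near-identical copies in the genome. The 5 listed ferritin copies had means of 1.5 to 17.8 normalized counts, and *Ftl1* also shares 26.5% of its exonic bases with *Gm10252* on the opposite strand (mean 0.917).

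**Figure D1:**
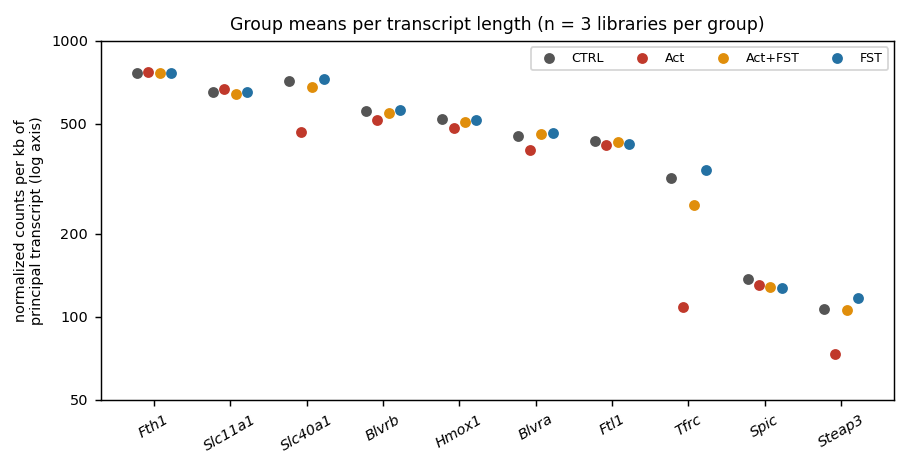
Group means of normalized counts per kilobase of principal transcript (log axis) for the 10 genes, ordered by mean level, with 1 point per group and 3 libraries behind each point. The Act points of *Tfrc* (108 per kb) and *Slc40a1* (465 per kb) lie below those of the other 3 groups, while the 4 points of *Fth1* nearly coincide.

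The comparison of Act with CTRL asked how activin A changed these genes. Activin A lowered 4 of the 10, namely *Tfrc* to 0.337 of its CTRL level, *Slc40a1* to 0.653, *Steap3* to 0.689 and *Blvra* to 0.888, and raised none. A gene was called where limma gave it an adjusted p of at most 0.05 (Benjamini-Hochberg over 14318 genes), by which 20.2% of all tested genes were called, 9.97% as lower and 10.3% as higher in Act. Only *Tfrc* among the 10 also changed by the 2-fold that the authors asked of a differentially expressed gene (DEG), a threshold that 3.09% of tested genes passed in the lower direction. The median log2 fold change of the 10 genes was −0.104, beside 0.00359 over all tested genes. The CTRL and Act libraries did not overlap for 7 of the 10, and they did not for 35.7% of all tested genes. Differences are log2 values of normalized counts plus 1 throughout.

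The largest difference among the 10 was in the transcript of the transferrin receptor. *Tfrc* (chr16:32608920-32632794, plus strand, GRCm38) had 1561, 1552 and 1547 normalized counts in the CTRL libraries and 565, 592 and 427 in the Act libraries. The CTRL libraries were nearly equal, and every Act library was far below them. The log2 fold change was −1.57 (SE 0.12, 95% interval −1.83 to −1.31, adjusted p = 3.9e-06), and the differences within replicate numbers 1, 2 and 3 were −1.46, −1.39 and −1.85. By size of change *Tfrc* ranked 446 among the 14318 genes. The transferrin receptor is known to be abundant on dividing cells. The 10 proliferation markers summed to between 3192 and 3730 normalized counts in CTRL and between 2202 and 2282 in Act, and their part in the *Tfrc* result was not tested.

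*Steap3* (chr1:120190757-120272705, minus strand), the endosomal ferrireductase that acts downstream of the transferrin receptor, stood at 595, 539 and 511 normalized counts across CTRL and at 421, 359 and 353 across Act. The groups did not overlap, although replicate 1 was the highest library in each. The log2 fold change was −0.54 (SE 0.08, 95% interval −0.70 to −0.37, adjusted p = 3.5e-04), and all 3 replicate numbers showed a fall.

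The transcript of the iron exporter was lower as well. *Slc40a1* (chr1:45908068-45926523, minus strand) measured 2353, 2336 and 2517 normalized counts in CTRL libraries against 1559, 1609 and 1533 in Act libraries. Every Act library lay below every CTRL library, with little spread in either group. The log2 fold change was −0.62 (SE 0.06, 95% interval −0.74 to −0.49, adjusted p = 1.4e-05). The mean ratio of *Tfrc* to *Slc40a1* normalized counts stood at 0.648 for CTRL and at 0.336 for Act, a difference that was not tested. *Slc11a1* (chr1:74375195-74386062, plus strand), the phagosomal transporter, was at 1487, 1532 and 1520 normalized counts without activin A and at 1528, 1542 and 1588 with it. Its groups overlapped, and its log2 fold change was 0.04 (95% interval −0.08 to 0.15, adjusted p = 0.70).

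No change of the ferritin chains was detected. *Fth1* (chr19:9980598-9985098, plus strand) had 1150, 1133 and 1135 normalized counts in the CTRL libraries and 1154, 1114 and 1193 in the Act libraries, with a log2 fold change of 0.02 (95% interval −0.09 to 0.12, adjusted p = 0.85). *Ftl1* (chr7:45457944-45459884, minus strand) had 416, 420 and 423 in CTRL and 399, 398 and 415 in Act. Its groups did not overlap, but the interval of the difference of −0.05 held 0 (95% interval −0.18 to 0.07, adjusted p = 0.59). The intervals of both chains together span −0.18 to 0.12, so a 2-fold change in the normalized counts of either chain lay outside them. A removal of duplicate reads, if one was made, could leave a change in the RNA itself understated.

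In heme degradation, *Blvra* was the gene that passed the test. *Blvra* (chr2:127070665-127097084, plus strand) stood at 517, 531 and 525 normalized counts across CTRL and at 475, 463 and 459 across Act. The groups did not overlap, and the log2 fold change was small at −0.17 (SE 0.04, 95% interval −0.26 to −0.08, adjusted p = 0.010). *Blvrb* (chr7:27447978-27466144, plus strand), which encodes the other biliverdin reductase, had 552, 577 and 591 in CTRL and 540, 508 and 548 in Act, a log2 fold change of −0.11 (95% interval −0.22 to 0.0057, adjusted p = 0.18). *Hmox1* (chr8:75093621-75100589, plus strand), the inducible heme oxygenase, had 844, 787 and 814 in CTRL and 778, 757 and 744 in Act. Its log2 fold change was −0.10 (95% interval −0.21 to 0.0056, adjusted p = 0.18). Act libraries lay below all CTRL libraries for both *Blvrb* and *Hmox1*, yet neither difference passed the test. *Spic* (chr10:88674772-88685015, minus strand) was at 232, 242 and 248 normalized counts without activin A and at 215, 238 and 234 with it, with overlapping groups and a log2 fold change of −0.07 (95% interval −0.30 to 0.16, adjusted p = 0.71).

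**Figure D2:**
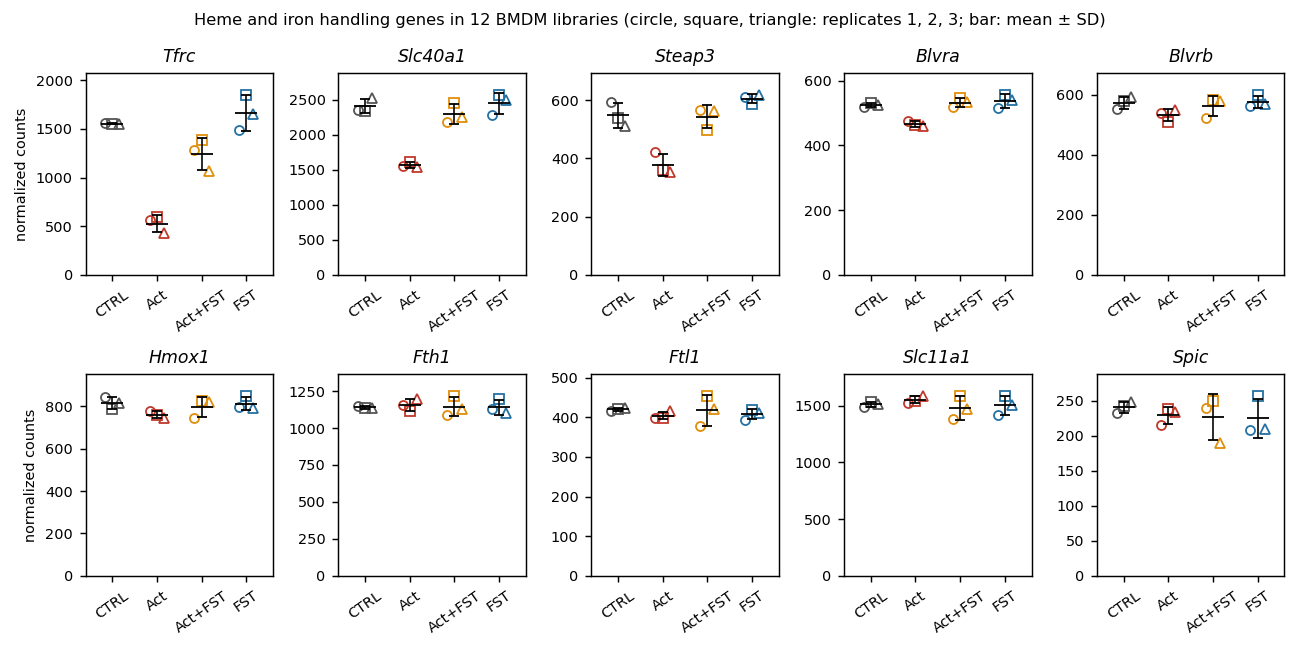
Normalized counts of the 10 genes in each of the 12 libraries by group, with each vertical axis starting at 0. Circles, squares and triangles are replicates 1, 2 and 3, and bars give the mean ± SD. The Act libraries of *Tfrc* lie between 427 and 592 and all other libraries between 1068 and 1851. The Act libraries of *Slc40a1* lie between 1533 and 1609, below a lowest value of 2181 elsewhere.

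FST288 was added to learn whether the response depended on free activin A. With both agents present, *Tfrc* had 1281, 1390 and 1068 normalized counts, *Slc40a1* had 2181, 2451 and 2254, *Steap3* had 567, 498 and 564, and *Blvra* had 517, 545 and 534. For each of these 4 genes every Act library was below every Act+FST library. The share of all tested genes without overlap was not counted for this comparison. In Act versus Act+FST the log2 fold changes were −1.24 for *Tfrc* (SE 0.12, adjusted p = 2.0e-05), −0.55 for *Slc40a1* (SE 0.06, adjusted p = 3.4e-05), −0.52 for *Steap3* (SE 0.08, adjusted p = 4.2e-04) and −0.19 for *Blvra* (SE 0.04, adjusted p = 0.0048). Thus 4 of the 10 genes were called, all lower in Act, where 21.3% of all tested genes were called and 10.2% were lower, and *Tfrc* was again the 1 DEG, with 3.11% of tested genes DEGs lower in Act. Without Act+FST replicate 3 the changes were −1.35 for *Tfrc*, −0.56 for *Slc40a1* and −0.50 for *Steap3*, all still called. This comparison and that with CTRL share the Act libraries.

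In Act+FST versus CTRL limma called none of the 10 genes, as it called 0% of all tested genes, while 655 genes had an unadjusted p under 0.05. *Tfrc* was 1 of these genes (unadjusted p = 0.019). Its Act+FST libraries (1068 to 1390) lay below its CTRL libraries (1547 to 1561) without overlap, at a log2 fold change of −0.33 (95% interval −0.59 to −0.06, adjusted p = 0.94), and it was lower in 3 of 3 replicate numbers. With the replicate number as a block the adjusted p was 0.11, and without Act+FST replicate 3 the change was −0.22. Without that library *Slc40a1* stood at −0.05 and *Steap3* at −0.04, beside −0.07 and −0.01 with it. The other 9 genes overlapped between Act+FST and CTRL, with log2 fold changes from −0.10 to 0.02. How many of all tested genes did not overlap was not counted here, so the non-overlap of *Tfrc* has no background beside it. A comparison of Act+FST with FST, added after the data were seen, gave *Tfrc* at −0.42 (95% interval −0.68 to −0.16, unadjusted p = 0.0046, adjusted p = 0.96), *Slc40a1* at −0.09 and *Steap3* at −0.16, and called 0% of tested genes, with 502 genes at an unadjusted p under 0.05. Without Act+FST replicate 3 *Tfrc* stood at −0.31 in that comparison (95% interval −0.58 to −0.05, unadjusted p = 0.025), *Slc40a1* at −0.08 and *Steap3* at −0.19, and 0 genes were called.

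FST288 alone left no called difference. In FST versus CTRL limma called 0 of the 10 genes and 0% of all tested genes, none of the 10 had an unadjusted p under 0.05 without the block, and 299 of the 14318 did. *Tfrc* had 1486, 1851 and 1652 normalized counts, a log2 fold change of 0.09 (95% interval −0.17 to 0.36). *Slc40a1* had 2280, 2567 and 2498, a change of 0.03 (95% interval −0.10 to 0.15). *Steap3*, at 609, 587 and 618, was higher than CTRL in 3 of 3 replicate numbers, with a log2 fold change of 0.14 (95% interval −0.02 to 0.31). With the replicate block its interval was 0.026 to 0.26 (unadjusted p = 0.021, adjusted p = 0.91), and 700 of all genes had an unadjusted p under 0.05 in that fit, with none called. The groups overlapped for all 10 genes, with no count over all tested genes beside this.

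Whether the effect of activin A differed without and with FST288 was tested as an interaction, (Act minus CTRL) minus (Act+FST minus FST). The difference was −1.15 for *Tfrc* (SE 0.17, adjusted p = 0.0019) and −0.52 for *Slc40a1* (SE 0.08, adjusted p = 0.0023), so 2 of the 10 genes were called, beside 6.74% of all tested genes. *Steap3* gave −0.38 (SE 0.11, adjusted p = 0.055) and *Blvra* −0.16 (SE 0.06, adjusted p = 0.13). With the replicate number as a block *Steap3* was called (adjusted p = 0.0039), as were 16.3% of all tested genes, and *Blvra* was not (adjusted p = 0.060). Without Act+FST replicate 3 and without the block the interaction was −1.26 for *Tfrc* and −0.53 for *Slc40a1*, both called, and −0.35 for *Steap3*, not called (adjusted p = 0.11). The other 6 genes had differences from −0.08 to 0.06, none of them called.

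**Figure D3:**
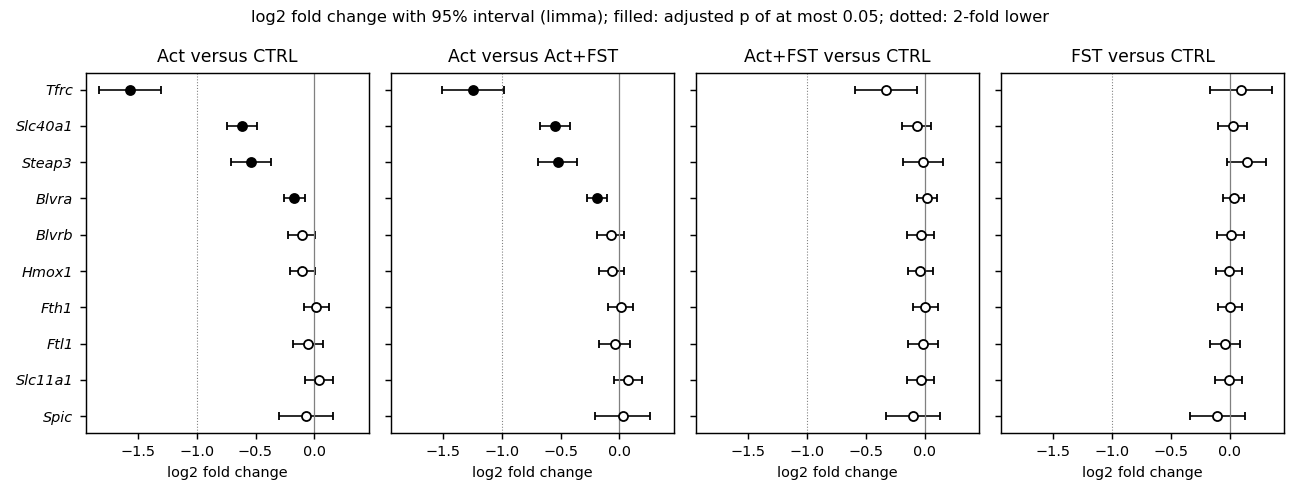
Log2 fold change of the 10 genes in 4 comparisons, with 95% intervals from limma over 3 libraries per group. Filled points have an adjusted p of at most 0.05, and the dotted line marks a 2-fold fall. *Tfrc*, *Slc40a1*, *Steap3* and *Blvra* are filled in Act versus CTRL and in Act versus Act+FST, and no point is filled in the panels of Act+FST and FST versus CTRL.

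Variation among libraries was small for most of the 10 genes. Over all 12 libraries the coefficient of variation was 38.1% for *Tfrc*, 18.0% for *Steap3* and 17.7% for *Slc40a1*, and from 3.48% (*Fth1*) to 8.90% (*Spic*) for the other 7. Within groups, the deviations of *Tfrc* and *Slc40a1* from their group means had a Pearson r of 0.58 over 12 libraries, those of *Slc40a1* and *Steap3* one of −0.52, and those of *Tfrc* and *Steap3* one of −0.025. These correlations are descriptions over libraries that share replicate numbers. A different correlation, over the 12 libraries on the log2 scale, kept the differences between groups. By it 3 of 10624 compared genes followed *Tfrc* most closely. They were *Gprc5c* (Pearson r = 0.989), which encodes an orphan receptor, *Ankrd33b* (r = 0.986) and *H1f2* (r = 0.985), a linker histone. All 3 were also lower in Act than in CTRL, a difference that enters these values. *Gprc5c* measured 776, 833 and 760 normalized counts for CTRL, 211, 245 and 173 in Act, 727, 769 and 554 in Act+FST, and 858, 911 and 763 in FST. As for *Tfrc*, its lowest Act+FST library was replicate 3.

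Markers of other cells were measured beside these genes. Of 10 erythroid markers, 6 are not listed, among them 4 adult globin genes, and 3 could be tested. *Ermap* rose in Act from a mean of 3.0 to 157 normalized counts (adjusted p = 1.3e-05) and *Epor*, the erythropoietin receptor, fell from 130 to 50.7 (adjusted p = 2.9e-04). *Klf1*, near the floor, had means of 5.0 in CTRL and 2.67 in Act (adjusted p = 0.12, not called), and the untested *Gata1* 2.0 and 1.33. The summed level was 124 to 155 in CTRL and 202 to 231 in Act, and *Ermap* was the only listed marker with a higher mean in Act. Of 8 neutrophil markers, all tested, *Mpo* (98.7 to 24.0, adjusted p = 0.0092) and *Elane* (37.0 to 9.67, adjusted p = 0.025) fell, and the sums overlapped (867 to 1193 in CTRL, 695 to 1077 in Act). Stromal markers summed to 55, 4 and 3 in CTRL replicates 1, 2 and 3 and to 200, 20 and 12 in Act. The sums were 3 to 90 in Act+FST and 7 to 107 in FST, and replicate 1 was highest in every group. Of 2 tested stromal markers none was called in Act versus CTRL. With the replicate block *Col1a2* was called higher (log2 fold change 2.76, adjusted p = 4.7e-04), as the block called 4508 of 14318 genes. Lymphocyte markers summed to between 4 and 19. In bulk RNA, fewer cells of a type and less RNA per cell cannot be told apart, and the part of these cells in the results above was not tested.

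Genes around the 10 were read from 7 lists chosen by function. Calls in these lists stand beside 20.2% of all tested genes called in Act versus CTRL, and 4508 of 14318 with the replicate block. NRF2 is the transcription factor that also drives *Hmox1* under oxidative stress. Of 10 other NRF2 targets 5 rose in Act, none fell, and the list had a median log2 fold change of 0.183, beside 0.00359 over all genes. *Slc7a11*, the cystine importer, had 85, 54 and 83 normalized counts in the CTRL libraries and 382, 327 and 562 in the Act libraries, with 44, 36 and 40 in Act+FST and 66, 49 and 73 in FST. Every Act library was above all others, and the change against CTRL was 2.49 on the log2 scale (SE 0.22, adjusted p = 1.1e-05). In Act+FST versus CTRL *Slc7a11* stood at −0.85 (adjusted p = 0.68, and 0.023 with the replicate block). The enzymes of glutathione synthesis and thioredoxin reduction rose less, with *Gclm* at 0.63 (adjusted p = 6.6e-05), *Gclc* at 0.41 (adjusted p = 0.0020) and *Txnrd1* at 0.48 (adjusted p = 1.6e-04). The fifth was *Gsr* (0.30, adjusted p = 3.1e-04), named after its values were seen because the rule for named genes stops at 4 a list. *Nfe2l2*, which encodes NRF2 itself, had a log2 fold change of 0.06 (adjusted p = 0.45), and *Bach1*, the heme-binding repressor of *Hmox1*, 0.04 (adjusted p = 0.68).

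Of 14 tested genes of heme transport and sensing, 3 fell, 1 rose and 10 were not called (median −0.00642), beside 20.2% of all tested genes called. *Cd163*, the scavenger receptor for hemoglobin bound to haptoglobin, measured 252, 229 and 251 normalized counts for CTRL, 92, 107 and 62 in Act, 244, 219 and 181 in Act+FST, and 248, 242 and 238 in FST. It was below all other groups in every Act library, and it changed against CTRL by −1.51 on the log2 scale (SE 0.16, adjusted p = 4.1e-05). *Flvcr1*, long described as a heme exporter, fell from a mean of 761 to 629 (log2 fold change −0.28, adjusted p = 0.0021), and *Pgrmc1*, a heme-binding protein, from 509 to 449 (−0.18, adjusted p = 0.015). *Abcg2*, an efflux transporter that accepts porphyrins, rose from 195 to 250 (0.36, adjusted p = 0.032). *Slc48a1*, the lysosomal heme transporter, had −0.04 (adjusted p = 0.65). With the replicate block, which called 4508 of 14318 genes, 2 genes of this list were called higher. The addition was *Hebp1*, a heme-binding protein (0.21, adjusted p = 0.023), named after its values were seen.

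Heme synthesis gave no call among 8 tested genes, with 1 gene, *Alas1*, at an unadjusted p under 0.05 and a median of 0.0202. With the replicate block 1 gene was called higher, *Alas1*, the first enzyme of the pathway outside red cells (0.13, adjusted p = 0.030), and 1 lower, *Uros* (−0.22, adjusted p = 0.027), both named after their values were seen. In iron uptake, storage and export 1 of 11 tested genes rose and 1 fell (median 0.0953), beside 10.3% of all tested genes called higher and 9.97% lower. *Slc22a17*, the lipocalin-2 receptor, rose from 43.7 to 94.3 normalized counts (log2 fold change 1.09, adjusted p = 2.9e-04), and *Ncoa4*, the cargo receptor that takes ferritin to lysosomes, fell from 559 to 451 (−0.31, adjusted p = 0.020). *Cp*, the ferroxidase that works with ferroportin, had 564, 437 and 292 in CTRL and 641, 672 and 606 in Act, a log2 fold change of 0.62 (adjusted p = 0.14) that was called with the replicate block (adjusted p = 0.0023). The block raised the count of this list to 3 higher and 2 lower, adding the metal importers *Slc39a14* (0.31, adjusted p = 0.0065) and *Slc39a8* (−0.26, adjusted p = 0.025), named after their values were seen. Over all tested genes the block called 4508 of 14318. The endosomal iron transporter *Slc11a2* stood at 0.07 (adjusted p = 0.34).

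Among iron regulators 1 of 6 tested genes rose (median 0.0233), beside 10.3% of all tested genes called higher. It was *Hfe*, which encodes a partner of the transferrin receptor, from 943 to 1082 normalized counts (log2 fold change 0.20, adjusted p = 0.013). The transcripts of the iron regulatory proteins, which bind iron-responsive elements, had log2 fold changes near 0. They stood at 0.02 for *Ireb2* (95% interval −0.11 to 0.15) and −3.3e-05 for *Aco1* (95% interval −0.083 to 0.083). The amount and the binding of these proteins were not measured. Among genes for iron-sulfur clusters and mitochondrial iron none fell (median −0.00327), and the scaffold gene *Iscu* rose from 288 to 346 (0.26, adjusted p = 0.033). Of 6 genes typical of red pulp macrophages, *Cd163* fell, *Treml4*, a receptor of myeloid cells, rose from 50.0 to 171 (1.76, adjusted p = 1.2e-04), and 4 were not called (median 0.09). In Act+FST versus CTRL limma without the block called no gene of the 7 lists, with the block it called *Slc7a11* alone, and 4 genes had an unadjusted p under 0.05 in the fit without the block, of which 3 were NRF2 targets.

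**Figure D4:**
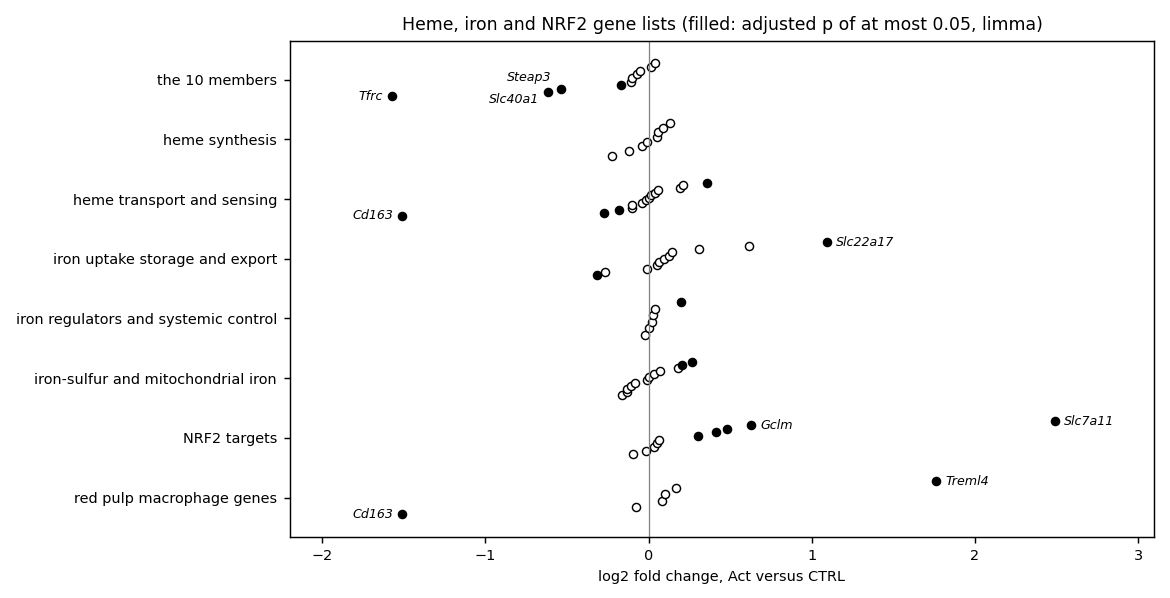
Log2 fold change in Act versus CTRL for each tested gene of the 10 described here and of 7 related lists, with 1 point per gene and 3 libraries per group. Filled points have an adjusted p of at most 0.05 from limma, and called genes beyond 0.5 in either direction are named. *Slc7a11* (2.49) and *Treml4* (1.76) lie farthest to the right and *Tfrc* (−1.57) and *Cd163* (−1.51, a member of 2 lists) farthest to the left.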

How the data were processed

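The authors trimmed reads with Trimmomatic 0.39, aligned them to mm10 with STAR 2.7.9a, counted reads lying partly in exons with featureCounts 2.0.2, and identified their own DEGs with DESeq2 1.30.0. The deposited signal is gene counts scaled per library and rounded, and the scaling formula, the strand setting and any removal of duplicate reads are not given in the sources used here. Whole reads could not be recovered, so limma 3.58.1 (R 4.3.3, empirical Bayes with a trend) was applied to log2(normalized count + 1) for 14318 genes with a mean of at least 5. The model held 4 group means and ignored the replicate numbers, which entered only in the alternative fit with the replicate block. Tests were two-sided and p-values were adjusted over all tested genes. All libraries were kept. Original depth is unknown, so no counting interval is given.

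The 10 genes, the lists and the tests were chosen with earlier results of these data known. Named from each list were the 4 largest called changes in Act versus CTRL with a mean of at least 50, and 9 genes whatever their values, and a gene of the iron-sulfur list is not reported here. The 3 genes most like *Tfrc* were ranked by Pearson r among genes with a mean of at least 50. Erythroid, neutrophil and stromal markers were named after their values were seen. Libraries with the same replicate number deviated together from their group means (18 correlations, 0.157 to 0.481). The numbers come from the labels and were therefore taken as pairs in the replicate block. The 36 pairs with different numbers had correlations of −0.358 to 0.169 with a mean of −0.155. Deviations in a group of 3 sum to 0, so this negative mean follows from the positive values and is no separate support for pairing. On simulated data of 14313 genes, 175 of 200 genes changed 3-fold in Act versus CTRL were called, with 7 false calls. The simulation held no smaller changes and no effect of the replicate number. It therefore does not show how often changes of the size seen for *Slc40a1*, *Steap3* or *Blvra* are called. Replicate pairs had a mean chi-square per gene of 1.46 to 4.87, and none was treated as a repeat deposit. Alternatives were other pseudocounts and filters, other scalings, the DEG thresholds, the replicate block, fewer libraries and, added after the data were seen, a correction for shared start positions and the block without Act+FST replicate 3. Positions are those of the deposited table. Transcripts and exons come from GENCODE M21 on GRCm38.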

Additional observations from a re-analysis of the deposited data

Results flagged for a closer look

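For 2 genes the effect of activin A without FST288 differed from its effect with FST288 by the interaction test. The difference of the log2 fold changes was −1.151 for *Tfrc* and −0.5224 for *Slc40a1*. *Tfrc* had a log2 fold change of −1.57 in Act versus CTRL and of −0.42 in Act+FST versus FST, with the same sign in both. *Slc40a1* had −0.62 and −0.09 in the same comparisons. Groups of 3 libraries were not searched gene by gene for outlying values. Act+FST replicate 3 stood apart by its proliferation markers, and fits that left out 1 library at a time were run.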

How the results depend on the processing

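The calls on the 10 genes in Act versus CTRL and in Act versus Act+FST were kept under every alternative run except the DEG thresholds, which asked for a 2-fold change and left 1 gene, *Tfrc*, in each comparison in place of 4. In Act versus CTRL over 22 alternatives *Tfrc* ranged from −1.71 to −1.42, *Slc40a1* from −0.70 to −0.58, *Steap3* from −0.62 to −0.48 and *Blvra* from −0.20 to −0.16, with highest adjusted p-values of 6.0e-05, 1.4e-04, 0.0026 and 0.041. None of the other 6 genes was called under any of these. No result reversed. The interaction for *Steap3* was called with quantile normalization (−0.41, adjusted p = 0.034), with the replicate block (−0.38, adjusted p = 0.0039), without Act replicate 1 (−0.46, adjusted p = 0.018), without Act+FST replicate 2 (−0.44, adjusted p = 0.032) and with the block and no Act+FST replicate 3 (−0.33, adjusted p = 0.0073), and the cause was not tested. The block changed no other call among the 10 genes. Over all genes, called genes with and without the block numbered 4508 and 2896 in Act versus CTRL, 4663 and 3048 in Act versus Act+FST, 2337 and 965 in the interaction, 80 and 0 in Act+FST versus CTRL, and 31 and 0 in Act+FST versus FST. The median of all genes moved by less than 0.1 under every scaling.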

Other observations

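With a correction for reads that share a start position, which raises the highest levels, the log2 fold changes in Act versus CTRL were −1.71 for *Tfrc*, −0.70 for *Slc40a1*, −0.56 for *Steap3* and −0.14 for *Hmox1* (adjusted p = 0.15 for *Hmox1*, not called). The ratio of *Blvra* to *Blvrb* normalized counts averaged 0.915 for CTRL and 0.876 for Act, and it averaged 0.950 for Act+FST and 0.931 for FST.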
